A study of Mus musculus with 2 samples.

Results

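The cells described here are the mouse embryonic stem cells (mESCs) labelled S1/5 dKO in which no unique molecular identifier (UMI, 1 counted mRNA molecule) of *Mest* was found. The cells were chosen by their *Mest* UMIs. The S1/5 dKO library held 2910 barcodes that showed 1000 genes or more with no more than 5% of UMIs from mitochondrial genes. Of these, 2689 had at least 20000 UMIs, and 270 of the 2689 had 0 *Mest* UMIs. They made up 10.0% of the 2689 cells (95% exact binomial interval 8.93 to 11.2%). The other cells held 1 to 3 *Mest* UMIs (1306 cells) or at least 4 (1113 cells), and the last class served as the comparison. Values given for the 3 classes are in the order 0, 1 to 3 and at least 4 *Mest* UMIs. The series has 2 single-cell libraries, both of feeder-free E14 mESCs grown on gelatin with fetal bovine serum and leukemia inhibitory factor (LIF). WT is the parental line, and S1/5 dKO cells were made from it with CRISPR-Cas9 against *Smad1* and *Smad5*, the transcription factors that carry bone morphogenetic protein (BMP) signals. Each condition is 1 library, and which S1/5 dKO line was loaded is not given in the sources used here. Cells of 1 library are not replicates, so no test was run and no p-value is given. All intervals are 95% exact intervals that cover counting error only.

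*Mest* (also called *Peg1*) is an imprinted gene. Its maternal copy receives DNA methylation at the promoter in the oocyte and stays silent, while the unmethylated paternal copy is expressed, mainly in mesodermal and extraembryonic tissues of the embryo. In cultured mESCs, methylation at such germline differentially methylated regions (DMRs) can be lost or gained, and the imprinted transcripts then change from culture to culture. The protein is a membrane protein with an alpha/beta hydrolase fold.

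Of the targeted genes, *Smad1* measured 8.89 UMIs per 1000000 UMIs (CPM) in the cells without *Mest*, 9.03 CPM in the cells with at least 4 *Mest* UMIs, and 13.3 CPM in WT. *Smad5* measured 9.34, 9.53 and 6.05 CPM. *Smad5* mRNA was thus higher in this library than in WT. The label names a genotype and not an mRNA level, and the library is called by its label throughout. The 3′ counts do not show whether a transcript still encodes protein. The cells without *Mest* expressed the markers of naive mESCs, with *Pou5f1* at 1307 CPM, *Zfp42* at 875 CPM and *Nanog* at 140 CPM. Markers of other cell types, the neural list apart, were scarce. Of the 270 cells, 1 held at least 10 UMIs of the 10 endoderm markers, where *Gata6* had 20 UMIs in 6 cells and at most 11 in a cell, and 0 reached 10 UMIs of the mesoderm, trophoblast, fibroblast or 2-cell-like lists, which allows a share of up to 1.11%. The neural list summed to 179, 169 and 184 CPM in the 3 classes, of which *Tubb3* gave 152 CPM in the first and 160 CPM in the last, with *Neurog2* at 0. At least 10 UMIs of that list were found in 43 of the 270 cells (15.9%), against 17.0 and 33.5% in the other, deeper classes. The libraries shared 0 cell barcodes.

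The promoter is shown because its methylation is what separates the parental copies of *Mest*. *Mest* lies at chr6:30723547-30748465 on the plus strand (GRCm38, GENCODE), and RefSeq (GRCm38.p6) lists starts that fall into an upstream and a downstream group. The windows run from 250 bases before to 50 bases after each start, and capitals mark CG, the dinucleotide that is methylated.
upstream start, chr6:30733256-30733555, plus strand: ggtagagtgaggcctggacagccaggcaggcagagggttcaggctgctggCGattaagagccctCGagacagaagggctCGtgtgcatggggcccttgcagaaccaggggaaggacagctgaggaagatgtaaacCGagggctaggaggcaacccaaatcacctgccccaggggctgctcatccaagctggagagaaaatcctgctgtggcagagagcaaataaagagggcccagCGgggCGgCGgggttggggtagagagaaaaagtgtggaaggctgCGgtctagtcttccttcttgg
downstream start, chr6:30737800-30738099, plus strand: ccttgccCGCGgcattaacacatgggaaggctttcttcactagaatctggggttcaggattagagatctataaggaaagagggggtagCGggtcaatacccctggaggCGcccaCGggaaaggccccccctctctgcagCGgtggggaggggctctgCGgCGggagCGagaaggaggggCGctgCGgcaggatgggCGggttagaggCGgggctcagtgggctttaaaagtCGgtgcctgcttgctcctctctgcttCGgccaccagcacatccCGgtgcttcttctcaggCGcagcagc
The downstream window held 17 CG and the upstream window 8, against a median of 7 over 32851 promoter windows of the same length. At least 17 CG were present in 31.4% of all windows. TGCCGC, the letters bound by the imprint-protecting factor ZFP57 when methylated, occurred 2 times in the downstream window and 0 times in the upstream window (both strands counted), and 11.6% of all windows held it. The counts come from the 3′ end of transcripts and cannot tell which start was used.

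Depth bears directly on a count of 0. The cells without *Mest* had a median of 30925.5 UMIs (20100 to 74578), the cells with 1 to 3 *Mest* UMIs 33508 and the cells with at least 4 UMIs 41082, with 4761.5, 4979 and 5440 detected genes. After each cell was thinned to 20000 UMIs, the medians of detected genes were 3905.5, 3945.5 and 3995. Mitochondrial UMIs took 1.84, 1.85 and 1.81%, and ribosomal protein mRNAs 25.8, 25.3 and 24.8%. A count of 0 allows up to 3 molecules in the same number of UMIs, which for the 270 cells came to a median limit of 97.0 CPM (40.2 to 149 CPM). The mean *Mest* level of the whole library was 93.6 CPM (91.8 to 95.5), above that limit in 116 of the 270 cells. In the other 154 cells, a level equal to the library mean was not distinguishable from 0 at this depth. The limit holds for a cell not chosen by its count. These cells were chosen from 2689 for a count of 0, and 117 zeros are expected at a common rate. The limit therefore does not place any given cell of the 116 below the library mean.

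The share of cells without *Mest* was lower in deeper cells of the S1/5 dKO library and nearly flat in WT. Among cells of 20000 to under 25000 UMIs, 18.6% had no *Mest* UMI (14.2 to 23.7%), among those of 40000 to under 50000 UMIs 6.76% (4.75 to 9.27%), and among those of at least 60000 UMIs 1.70% (0.466 to 4.30%), which is 4 of 235 cells. In WT the corresponding shares were 88.0, 87.7 and 85.9%. With every cell at the same rate per UMI, 117 S1/5 dKO cells (4.37%) would have had a count of 0, and 270 did. The excess was present in every depth class, from 11.9% against 18.6% in the shallowest to 0.141% against 1.70% in the deepest. With a rate that varies between cells (negative binomial, dispersion 0.291, fitted to the counts of all 2689 cells), 270 cells were placed at 0. The zeros entered that fit, so the match at 0 does not show whether a separate class of cells without the transcript was present. In WT, 88.4% of 2113 cells had no *Mest* UMI against 61.3% at a common rate, and the fitted dispersion was 18.3. The WT counts were poorly described by such a distribution, with 4.31% of cells placed at 1 UMI and 1.70% found there.

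**Figure D1:**
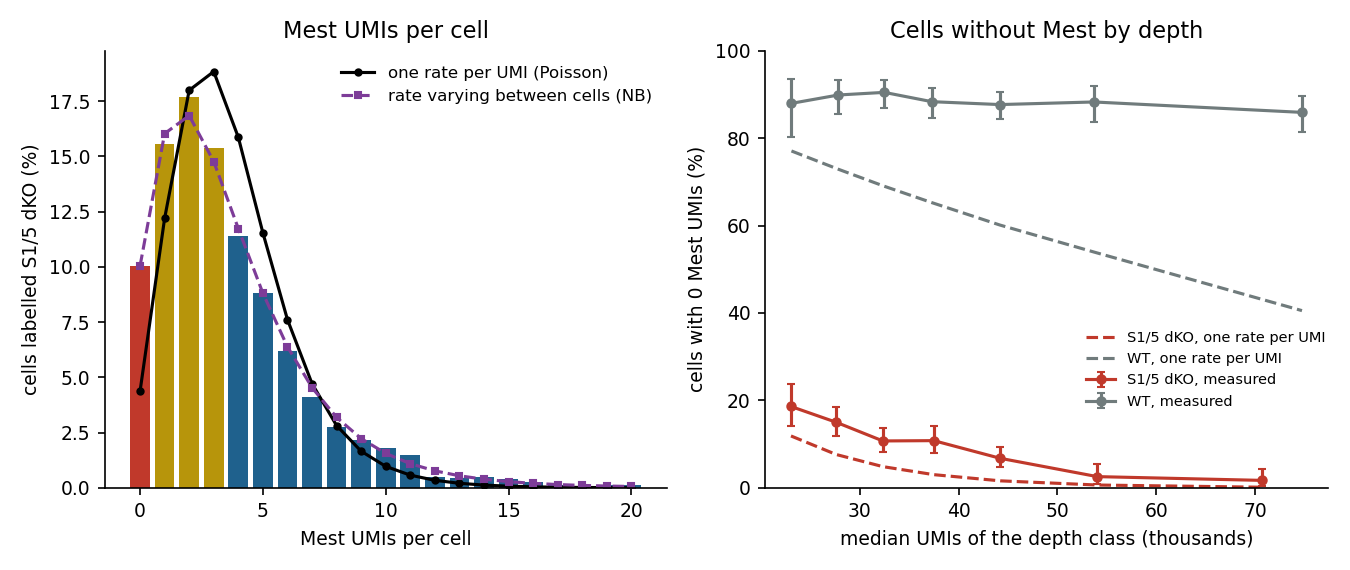
Left, share of the 2689 S1/5 dKO cells (%) by *Mest* UMIs per cell, shown up to 20 UMIs, with 0 in red, 1 to 3 in ochre and at least 4 in blue; lines give the counts expected with a common rate per UMI (black) and with a rate that varies between cells (purple). Right, share of cells with 0 *Mest* UMIs (%) against the median UMIs of 7 depth classes, measured (points, 95% exact binomial intervals) and expected at a common rate (dashed); the S1/5 dKO share went from 18.6 to 1.70% while WT stayed between 85.9 and 90.5%.

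After thinning to 20000 UMIs, 21.9% of the S1/5 dKO cells (20.3 to 23.5%) and 90.5% of the WT cells (89.2 to 91.7%) had no *Mest* UMI. The cut at 0 had no gap beside it, since 418 cells had 1 *Mest* UMI at a median depth of 32454 UMIs, 413 had 3 and 306 had 4. At the edge of the depth minimum, 12 of 62 cells with 18000 to under 20000 UMIs lacked *Mest*, and 21 of 85 with 20000 to under 22000 UMIs. Barcodes with 10 to 100 UMIs, which hold free RNA and no cell, carried *Mest* at 64.9 CPM (54.1 to 77.2) in the S1/5 dKO library and at 14.2 CPM (9.17 to 20.9) in WT. No cells in the library were known to lack *Mest*, so the share of cells given a *Mest* UMI by free RNA could not be measured. Such UMIs would move cells out of the class without *Mest*, and this was not tested.

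The cells without *Mest* were set beside the WT cells by measures that left *Mest* itself out. Whether WT cells were present in the S1/5 dKO library was not tested. A segment of chromosome 8 from *Borcs8* to *Smad1* (chr8:70139499-79399518), found in these libraries, gave fewer UMIs in S1/5 dKO cells than in WT. It measured 7849 CPM in the cells without *Mest*, 7845 CPM with 1 to 3 UMIs, 7870 CPM with at least 4, and 11365 CPM in WT. Cell by cell, it took a median of 0.791% of the UMIs of the cells without *Mest* (0.578 to 0.994%), 0.785% of those with at least 4 and 1.14% of the WT cells. The midpoint between the library medians was 0.961%, and 1 of 270 cells without *Mest* lay above it (0.370%, 0.00938 to 2.05%), against 12 of 1113 with at least 4 *Mest* UMIs (1.08%) and 96.1% of WT. Another score, built on 15 genes higher in S1/5 dKO and 5 higher in WT, imprinted genes left out, separated the libraries less well. Its genes were at least 2-fold apart between WT cells with 0 and S1/5 dKO cells with 1 to 3 *Mest* UMIs. These classes were set by *Mest* UMIs, so the choice of score genes was not independent of *Mest*. The median score was 0.82 in the cells without *Mest*, 0.81 with at least 4 *Mest* UMIs and −1.22 in WT. The score is the log2 ratio of the UMIs of the gene groups. On the WT side of the midpoint of this score lay 28.9% of the cells without *Mest*, 25.8% of those with at least 4 UMIs and 72.3% of WT, and 53 of the 270 were within 0.5 of the midpoint. Among the 20 nearest neighbours in the rest of the transcriptome, computed over both libraries, WT cells made up a mean of 31.1% for the cells without *Mest*, 28.3% with 1 to 3 *Mest* UMIs, 24.8% with at least 4 and 66.1% for the WT cells. At least 10 of the 20 neighbours were WT for 55 of the 270 cells without *Mest* (20.4%), against 143 of 1113 with at least 4 (12.8%). The share of WT neighbours thus fell from class to class with more *Mest* UMIs and was highest in the cells without *Mest*. Their share of the chromosome 8 segment was that of the other S1/5 dKO cells.

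**Figure D2:**
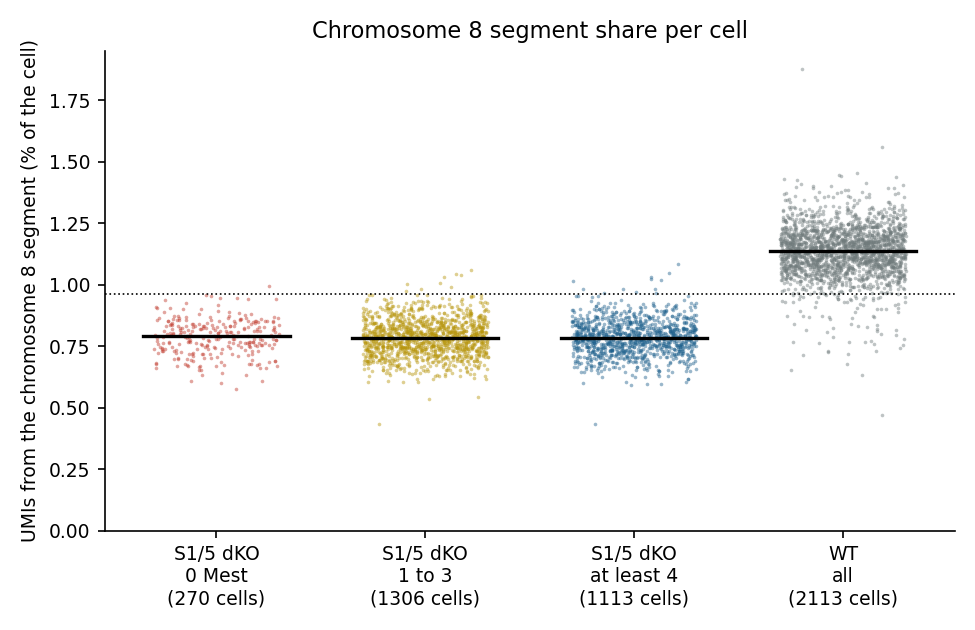
Share of each cell's UMIs from the chromosome 8 segment (%), by *Mest* class of the S1/5 dKO library and for WT. Each point is a cell, solid lines are medians (0.791, 0.785, 0.785 and 1.14%) and the dotted line is the midpoint of 0.961%; the 3 S1/5 dKO classes lie together below WT.

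Apart from *Mest*, the cells without it differed little from the cells with at least 4 UMIs in the genes compared. UMIs were summed over the cells of each class and divided by the class total, 8777534 UMIs for the cells without *Mest* and 50601284 for the comparison. Of 7789 genes with at least 50 UMIs expected in the cells without *Mest* at the rate of both classes together, 99.4% lay within 1.5-fold. The median log2 ratio was −0.04, with the 5th and 95th percentiles at −0.32 and 0.19. At least 1.5-fold higher were 18 genes (0.231% of those compared) and at least 1.5-fold lower 29 genes (0.372%). The counting intervals of all 47 excluded a ratio of 1, as did those of 428 genes above and 998 genes below it overall. The 47 were chosen by these same ratios and a minimum count, which made such intervals likely, so this adds no support. Most of the 47 were scarce transcripts. *Gm21761*, 1 of the 5 score genes higher in WT, fell below the minimum of 50 expected UMIs and was not compared. It measured 0.228 CPM without *Mest* and 5.10 CPM with at least 4 UMIs (log2 ratio −4.48), and 6.72 CPM in WT. The first value lies below 0.342 CPM, the level of 3 UMIs in that class. With 1 to 3 *Mest* UMIs *Gm21761* was also low, at a log2 ratio of −5.16 against WT cells with 0. The number of cells that carried it is not given here. Among the 4328 genes with at least 200 expected UMIs, 4 were at least 1.5-fold higher (*1700007K13Rik*, *Cdkn1c*, *Sdc4* and *Hist1h2ae*) and 3 lower (*Map1b*, *Fgf17* and *Fgfbp1*). With the comparison cells weighted to the depth of the cells without *Mest*, *Cdkn1c* (0.56), *Sdc4* (0.56) and *Hist1h2ae* (0.15) fell inside 1.5-fold. *1700007K13Rik* (0.74) and the 3 lower genes stayed past it.

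**Figure D3:**
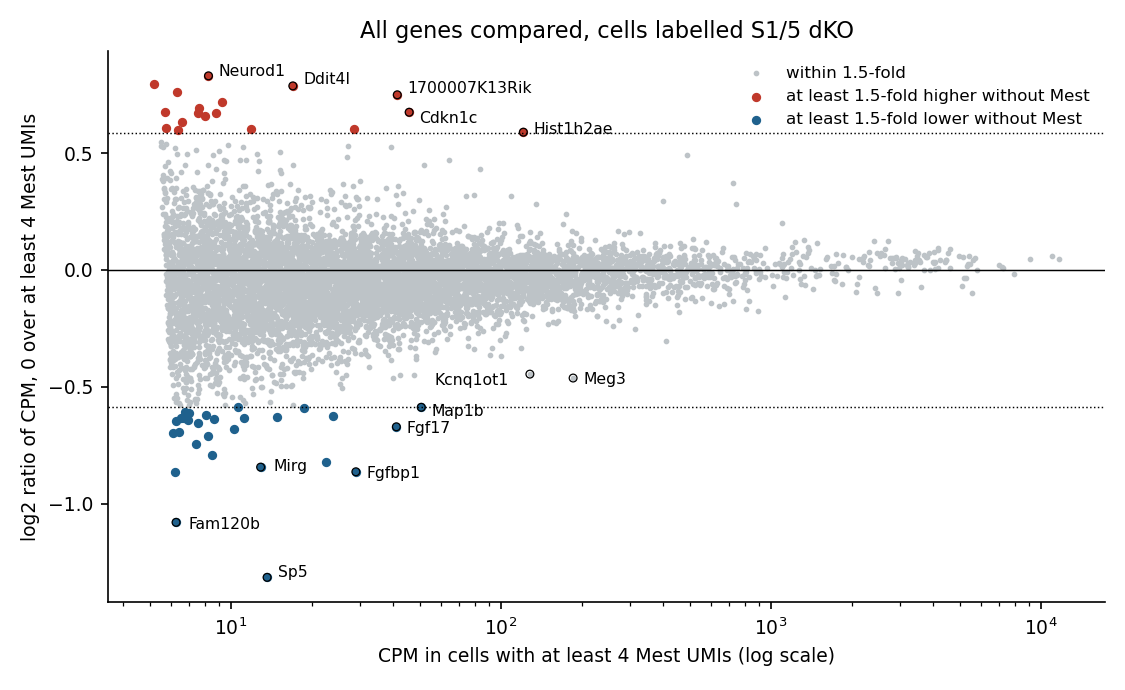
Log2 ratio of CPM, cells with 0 over cells with at least 4 *Mest* UMIs, against CPM in the latter (log axis), for the 7789 genes compared. Dotted lines mark 1.5-fold; 18 genes in red are higher and 29 in blue are lower without *Mest*, most of them at low CPM, and named genes are circled.

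Of the genes compared, the lowest without *Mest* were led by *Sp5*, a Wnt target that encodes a zinc finger transcription factor (chr2:70474923-70477729, plus strand). *Sp5* measured 5.47 CPM in the cells without *Mest* (48 UMIs), 9.97 CPM with 1 to 3 UMIs and 13.6 CPM with at least 4 (689 UMIs), a log2 ratio of −1.32 (−1.77 to −0.89). Per cell it had a median of 0 UMIs in all 3 classes and a highest count of 7, 24 and 25. After thinning, 8.15% of the cells without *Mest* had an *Sp5* UMI (5.18 to 12.1%), against 10.0 and 15.2% in the other classes. Before thinning, at unequal depths, at least 5 *Sp5* UMIs were found in 1, 26 and 43 cells (0.370, 1.99 and 3.86%). Over finer classes *Sp5* measured 5.47 CPM at 0 *Mest* UMIs, 8.14 CPM at 1, and 19.3 CPM at 9 or more.

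*Fgfbp1*, which encodes a secreted carrier of fibroblast growth factors (FGFs), measured 15.9 CPM without *Mest*, 25.4 CPM with 1 to 3 UMIs and 29.0 CPM with at least 4, a log2 ratio of −0.86 (−1.12 to −0.61). The highest count in a cell was 8, 25 and 51 UMIs. Before thinning, at least 5 *Fgfbp1* UMIs were found in 1.48, 5.51 and 9.52% of the cells. Without the cells of at least 10 *Sp5* and *Fgfbp1* UMIs together, the log2 ratio of *Sp5* was −0.73 and that of *Fgfbp1* −0.32. *Fgf17*, an FGF ligand, followed the same order of classes at 25.7, 30.5 and 41.0 CPM (log2 ratio −0.67, −0.88 to −0.47). *Map1b*, a microtubule-associated protein, and *Krt17*, a keratin of the epithelial cytoskeleton, had log2 ratios of −0.59 and −0.62.

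The other genes among the 10 lowest were *Fam120b* (log2 ratio −1.08), the cholesterol exporter *Abca1* (−0.87), the noncoding RNA *Mirg* (−0.84), *2310043M15Rik* (−0.82), the DNA-protein crosslink protease *Sprtn* (−0.79), the small GTPase *Rab31* (−0.75), *Phactr4* (−0.71) and *Zgrf1* (−0.70). *Fam120b*, *Abca1*, *Sprtn*, *Rab31*, *Phactr4* and *Zgrf1* rested on 26 to 44 UMIs in the cells without *Mest*, and their upper interval bounds lay between −0.50 and −0.18.

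The 18 higher genes included *Cdkn1c*, *Ddit4l*, *Neurod1* and *Hist1h2ae*. *Cdkn1c*, which encodes the cyclin-dependent kinase (CDK) inhibitor p57 and is itself imprinted and maternally expressed (chr7:143458339-143461050, minus strand), measured 73.0 CPM without *Mest* (641 UMIs), 61.2 CPM with 1 to 3 UMIs and 45.7 CPM with at least 4 (2314 UMIs). Its log2 ratio was 0.68 (0.55 to 0.80). After thinning, 55.2% of the cells without *Mest* had a *Cdkn1c* UMI (49.0 to 61.2%), against 49.3 and 39.2%. The median was 1 UMI per cell in each class and the highest counts were 37, 67 and 59. Before thinning, at the unequal depths of the classes, 13.7, 13.4 and 12.3% of the cells had at least 5 UMIs, and the thinned means were 1.54, 1.26 and 0.887 UMIs per cell. WT cells measured 75.9 CPM, close to the cells without *Mest*.

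*Ddit4l* and *Ddit4*, stress-induced inhibitors of mTOR signaling, had log2 ratios of 0.79 (0.58 to 0.99) and 0.67 (0.30 to 1.04). *Ddit4l* measured 29.3, 21.8 and 17.0 CPM in the 3 classes, and 30.7% of the thinned cells without *Mest* had a UMI of it against 21.8% of those with at least 4. *1700007K13Rik* measured 69.5, 58.6 and 41.3 CPM (log2 ratio 0.75, 0.62 to 0.88). *Foxo3*, a forkhead factor of stress responses, measured 9.68, 5.95 and 6.38 CPM (0.60). *Neurod1*, a neurogenic transcription factor, led the list at 14.7, 10.9 and 8.26 CPM (0.83, 0.53 to 1.12). The median was 0 UMIs per cell in each class, and of the other 7 neural genes *Sox1*, *Nes* and *Tubb3* were compared and had log2 ratios of −0.38, −0.28 and −0.07. The histone genes *Hist2h2bb* and *Hist1h2ae* had ratios of 0.76 and 0.59. The remaining genes among the 10 highest were the major urinary protein gene *Mup6* (0.80), *Lrrfip1* (0.72) and the homeobox genes *Nkx2-9* (0.69) and *Adnp* (0.67). When the comparison cells were weighted to the depth of the cells without *Mest*, *Ddit4l* stayed at 0.79, and several others fell inside 1.5-fold. These were *Hist1h2ae* at 0.15, *Nkx2-9* at 0.43, *Neurod1* at 0.49, *Hist2h2bb* and *Ddit4* at 0.50, *Cdkn1c* and *Sdc4* at 0.56 and *Azin2* at 0.57. Of the lower genes named above, *2310043M15Rik* came to −0.53 and *Krt17* to −0.54. In cells of at least 30000 UMIs *Ddit4* was at 0.25, *Neurod1* at 0.43, *Lrrfip1* at 0.48, *Abca1* at −0.55, *Phactr4* at −0.55 and *1700007K13Rik* at 0.57.

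**Figure D4:**
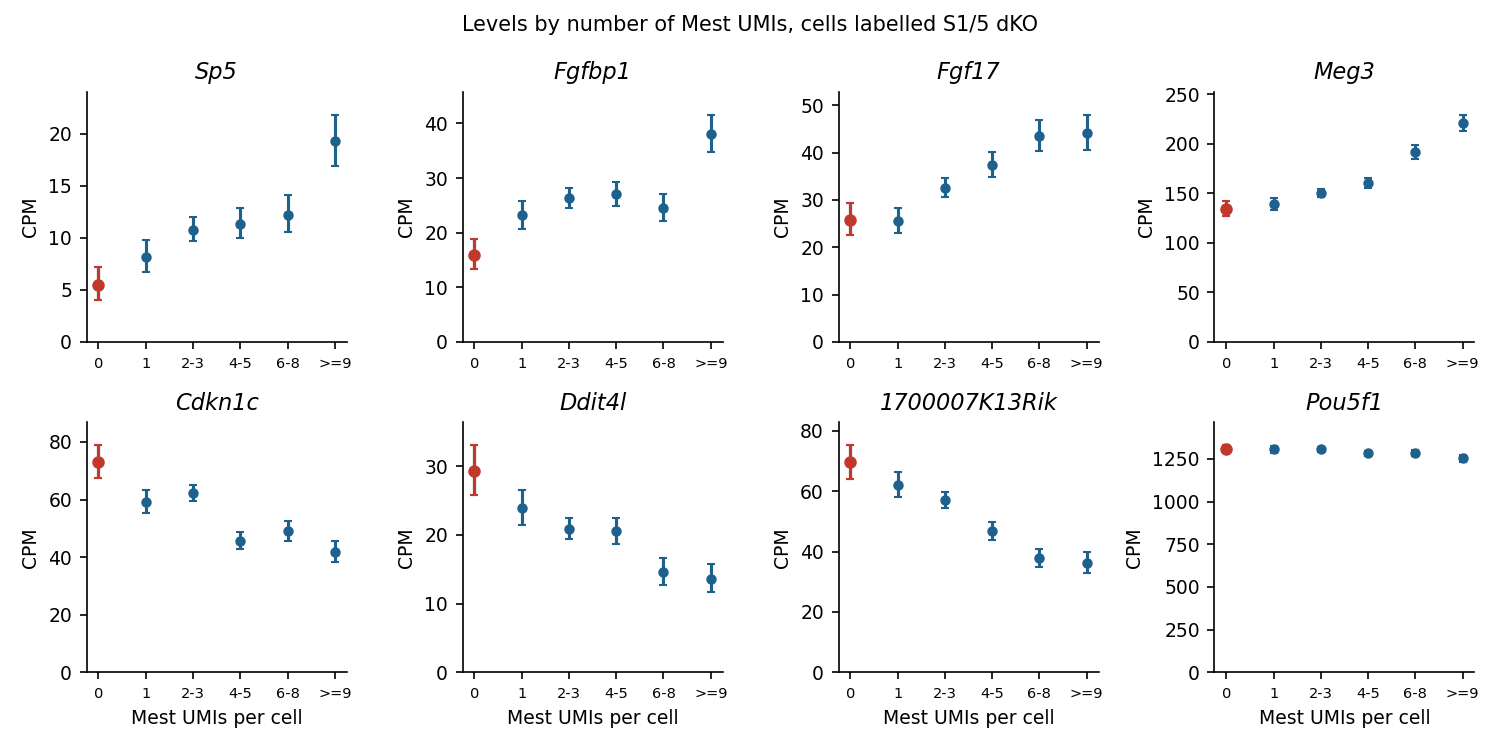
CPM of 8 genes (y axes, from 0) in S1/5 dKO cells grouped by *Mest* UMIs per cell (x axes), with 95% Poisson intervals of the summed UMIs and the cells without *Mest* in red. *Sp5*, *Fgfbp1*, *Fgf17* and *Meg3* are lowest at or near 0 *Mest* UMIs and highest at 9 or more, *Cdkn1c*, *Ddit4l* and *1700007K13Rik* run the other way, and *Pou5f1* spans 1253 to 1307 CPM.

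Of the other imprinted genes expressed from the paternal allele, *Kcnq1ot1*, *Peg3*, *Impact* and *Nnat* were lower in the cells without *Mest*, each by less than 1.5-fold. Of 22 other measured paternally expressed genes with a maternal germline DMR, 12 were compared and 0 were past 1.5-fold in either direction. Their median log2 ratio was −0.11 (−0.45 to 0.19), beside −0.04 over all genes, with 9 below and 3 above 0, where 64% of all genes lay below. The counting intervals of 4 of the 12 lay below 0, as did those of 12.8% of all genes compared. *Kcnq1ot1*, the long noncoding RNA that silences its neighbours on chromosome 7, measured 94.0, 108 and 128 CPM in the 3 classes (log2 ratio −0.45, −0.55 to −0.34). *Peg3*, a zinc finger protein, measured 19.6, 24.2 and 25.4 CPM (−0.37, −0.61 to −0.14). *Impact*, a regulator of the GCN2 kinase, measured 73.3, 85.7 and 92.3 CPM (−0.33, −0.46 to −0.21). *Nnat*, a membrane proteolipid, measured 22.3, 23.5 and 26.9 CPM (−0.27, −0.49 to −0.05). *Nnat* and *Impact* without *Mest* were above their WT levels of 3.14 and 45.6 CPM. *Snrpn* (0.07), *Mcts2* (0.06), *Peg10* (−0.00) and *Zdbf2* (−0.09) had intervals that included 0.

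The same genes were set apart by *Mest* class in WT, where 124 cells had at least 4 *Mest* UMIs and 1867 had 0. The log2 ratio of *Nnat* was −3.26 in WT (−3.64 to −2.87) and −0.27 in the S1/5 dKO library. For *Impact* it was −0.64 in WT (−0.79 to −0.50), and for *Kcnq1ot1* −0.35 (−0.46 to −0.24). *Grb10*, a maternally expressed growth inhibitor, had a ratio of 1.56 in WT and rested on 25 and 101 UMIs in the S1/5 dKO classes. The *Nnat* intervals lie apart, and with 1 library per condition the difference was not tested.

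Of 23 measured maternally expressed genes, 11 were compared, with 1 higher (*Cdkn1c*) and 1 lower (*Mirg*) and a median log2 ratio of −0.00. *Mirg* and *Meg3* are noncoding RNAs of the same domain of chromosome 12. *Mirg* measured 7.18, 9.09 and 12.9 CPM and *Meg3* 134, 147 and 185 CPM (log2 ratio −0.46, −0.55 to −0.38). A *Meg3* UMI was found in 75.9% of the thinned cells without *Mest* and in 86.0% of those with at least 4. *Dlk1*, the paternally expressed protein-coding gene of that domain, had 36 and 254 UMIs, too few to compare. *H19* had 0 UMIs in the cells without *Mest* and 48 in 23 of the cells with at least 4, at most 8 in a cell. The exact interval of its log2 ratio had an upper bound of −1.12. *Copg2*, which overlaps the end of *Mest* on the opposite strand (chr6:30747554-30748465), measured 9.23 and 9.25 CPM, a ratio of −0.00 (−0.36 to 0.34). Whether strand was used in the counting is not given in the sources used here. The 28 genes compared within 5 Mb of *Mest* had a median of −0.02 (−0.29 to 0.31).

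**Figure D5:**
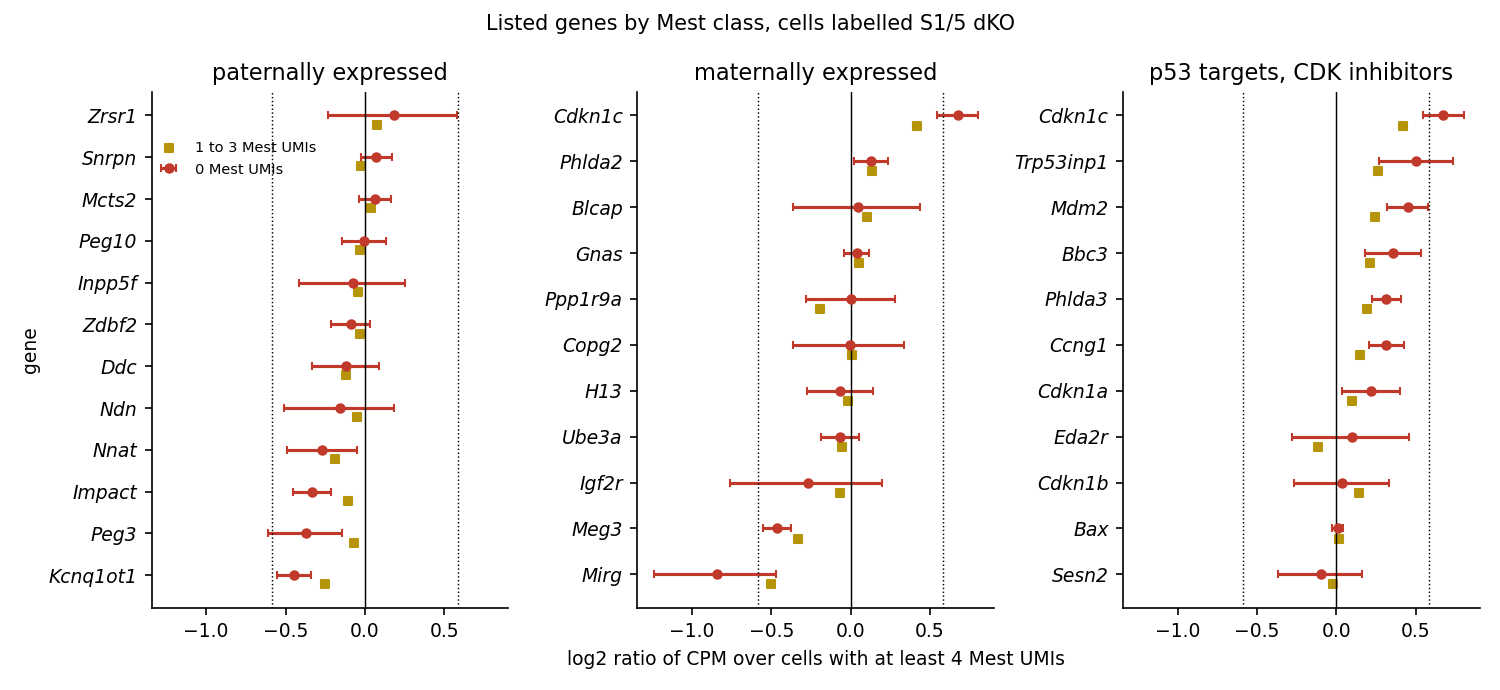
Log2 ratios of CPM over cells with at least 4 *Mest* UMIs (x axis) for the compared genes (y axes) of 3 lists. Red points are cells without *Mest* with 95% exact intervals, ochre squares cells with 1 to 3 *Mest* UMIs, and dotted lines 1.5-fold; *Cdkn1c* and *Mirg* lie past 1.5-fold, and 10 of the 11 p53 and CDK inhibitor genes lie above 0.

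The p53 targets and CDK inhibitors had the highest median of the lists. Of 13 genes, 11 were compared, 10 lay above 0, 7 had intervals above 0, and 1 (*Cdkn1c*) was at least 1.5-fold higher, with a median log2 ratio of 0.32. Over all genes compared, 36% lay above 0, 5.49% had intervals above 0 and 0.231% were at least 1.5-fold higher. *Trp53inp1* had a ratio of 0.50 (0.27 to 0.74). *Mdm2*, the ubiquitin ligase that degrades p53, measured 70.6, 61.2 and 51.7 CPM (0.45, 0.32 to 0.58). The proapoptotic *Bbc3* had 0.36, *Phlda3* 0.32, *Ccng1* 0.32, and the CDK inhibitor p21 (*Cdkn1a*) 0.22 (0.04 to 0.40). *Bax* (0.01) and *Sesn2* (−0.10) did not share this. The median was 0.22 with comparison cells weighted by depth and 0.21 with cells of at least 30000 UMIs. Among WT cells *Mdm2* had a ratio of 0.13 (−0.02 to 0.27) and *Trp53inp1* −0.24 (−0.48 to 0.01).

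Lists of other pathways held few or no genes past 1.5-fold. Of 25 G2/M genes, all compared, 0 were past it and 23 lay below 0 (64% of all genes). The intervals of 15 lay below 0, as did those of 12.8% of all genes. The G2/M median was −0.12, with *Kif20a* lowest at −0.27, while the depth-weighted median was −0.01. The comparison cells were deeper, with a median of 41082 against 30925.5 UMIs, and the part of depth in this was not tested further. Of 17 glycolysis genes 0 were past 1.5-fold, 10 had intervals below 0 (12.8% of all genes) and the median was −0.13, with the lactate exporter *Slc16a3* at −0.48 and *Ldhb* at 0.16. The 23 G1/S genes had a median of −0.03. For the naive pluripotency list 14 of 16 genes were compared, with a median of −0.08 and a range from −0.23 (*Nr0b1*) to 0.08. The BMP-SMAD targets gave a median of −0.09 over 6 genes, with *Id1* at 154 and 169 CPM (−0.13) and *Id2* at 13.9 and 17.3 CPM (−0.31), both far below their WT levels of 322 and 56.3 CPM. Of 17 compared genes for DNA methylation and imprint protection, 0 were past 1.5-fold, and *Dnmt3b*, a de novo methyltransferase, was lowest at −0.36 (−0.58 to −0.15). *Uhrf1* had −0.27, *Trim28* −0.15, *Dnmt1* −0.06 and *Zfp57* 0.02. The 13 compared ER stress genes had a median of −0.05, the 9 FGF-ERK response genes −0.07 and the 4 SMAD transducers −0.03. The 5 compared germline genes silenced by methylation had a median of −0.11. They ranged from −0.45 to 0.45 (*Rhox5*), with 1 interval above 0 and 1 below. Of 14 Wnt targets only 3 were compared, *Sp5*, *Notum* (−0.23) and *Tcf7* (−0.04).

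By the rest of the transcriptome, the cells without *Mest* lay mixed with the other cells of the library, with a small gradient by *Mest* class. Over 30 principal components of thinned counts without *Mest*, 10.8% of the 20 nearest neighbours of a cell without *Mest* also lacked it, against 10.0% of all cells. Of their neighbours 37.5% had at least 4 *Mest* UMIs, against 41.4% of all cells. For cells with 1 to 3 *Mest* UMIs, 9.75% of the neighbours lacked *Mest* and 39.4% had at least 4. For cells with at least 4, the shares were 8.54 and 43.8%. In 0 cells of each class did cells without *Mest* make up 10 or more of the 20 neighbours. With 10.0% of all cells in that class, such a count was unlikely in any case. Over the 2689 cells thinned to 20000 UMIs, the genes most like *Mest* by Pearson's r were *Meg3* (0.14), *Glul* (0.13), *Slc2a1* (0.13), *Fgfbp1* (0.13), *Sp5* (0.13), *Pea15a* (0.12), *Fgf17* (0.12), *Map1b* (0.12), *Dnaja2* (0.12) and *Emb* (0.11), of 8067 genes ranked. At the negative end *Dppa5a* (−0.16) and the ribosomal protein gene *Rpl19* (−0.15) lay farther from 0 than any positive value. The cells share 1 library and these values are weak descriptions of sparse counts.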

How the data were processed

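Libraries of WT and S1/5 dKO mESCs were made with the Chromium 3′ kit v3. Per the labels and the study's methods, the reads were processed by the authors in Cell Ranger 3.0.2 against mm10, and what they deposited is a matrix of raw UMI counts for each library, empty barcodes included. Cells were kept as in the study's methods, with the minimum of 20000 UMIs added. No doublets were called or removed, and cells of over 2 times the median UMIs were left out in an alternative. UMIs were summed per class and given as CPM. Ratios have exact binomial intervals of the split of UMIs between the classes, CPM values exact Poisson intervals, and a gene counts as higher or lower from 1.5-fold. *Mest* was left out because it chose the cells. Thinning drew 20000 UMIs per cell without replacement. Of 31053 genes, 30934 were matched by identifier to GENCODE (GRCm38). Named are *Mest*, *Smad1*, *Smad5*, list members with the largest ratios, and the 10 highest and 10 lowest ratios. Genes such as *Fgf17*, *Map1b*, *Krt17*, *Foxo3*, *Gata6*, *Gm21761*, *Dppa5a* and *Rpl19* were named after their values were seen. The cells, lists and tests were chosen with earlier results of these data known. The chromosome 8 segment and the score genes were found in these libraries. Calculations ran in Python 3.11.15 with scipy 1.17.1, numpy 2.4.6 and pandas 2.3.3, with edgeR 4.0.16 on R 4.3.3 for the normalization factors (TMM) of an alternative only. The ratio procedure was tested on counts simulated per class. The simulation had no variation between cells and no choice of cells by *Mest*, so it covers counting error only.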

Additional observations from a re-analysis of the deposited data

Results flagged for a closer look

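*Fgfbp1* had opposite directions in the libraries. Its log2 ratio of cells with 0 over cells with at least 4 *Mest* UMIs was 0.795 in WT (0.50 to 1.11), from 2122 and 93 UMIs, and −0.86 in the S1/5 dKO library. *Mup6* also had opposite directions, −0.50 in WT (−0.94 to −0.03) and 0.80 in the S1/5 dKO library. Of 226 genes looked at (the named genes, those past 1.5-fold and the compared list members), 4 others had counting intervals on opposite sides of 0 in the libraries. They were *Rec114* (−0.466 in WT and 0.66 in S1/5 dKO), *Krt17* (0.284 and −0.62), and, with small ratios, *Eno1* (0.0876 and −0.12) and *Mcm2* (0.137 and −0.16). The 226 include the 47 genes chosen by their S1/5 dKO ratios. No such count was made over all 7789 genes compared, so these cases have no background share beside them. The differences between the libraries were not tested.

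*Mest* was present in data outside the cells. In S1/5 dKO barcodes of 10 to 100 UMIs, 127 of 1958216 UMIs were *Mest*, or 64.9 CPM, against 14.2 CPM in the corresponding WT barcodes. How many *Mest* UMIs of the cells came from this RNA was not tested.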

How the results depend on the processing

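The share of S1/5 dKO cells without *Mest* was 10.0%, 7.6% with at least 30000 UMIs per cell and 21.9% after thinning to 20000 UMIs. It lay between 10.0 and 10.9% with at least 10000 UMIs, at least 2000 genes, at most 10% mitochondrial UMIs, or without the cells of over 2 times the median UMIs. The counts of 18 higher and 29 lower genes depended on the settings. Thinning gave 96 lower genes, at least 30000 UMIs per cell gave 58, and cells on the S1/5 dKO side of the library score gave 84, while the higher genes numbered 21, 16 and 15. A comparison class from 1 *Mest* UMI gave 9 higher and 15 lower, and one from 10 UMIs gave 61 and 136. A minimum of 20 expected UMIs gave 53 and 170, a minimum of 200 gave 4 and 3, and 2-fold in place of 1.5-fold gave 0 and 2. Weighting by depth gave 17 and 40, of which 10 and 14 were among the 18 and 29. Thinning and fewer cells leave fewer UMIs per gene, and a lower minimum admits genes with fewer UMIs. The cause of these and the other shifts was not tested. TMM scaling shifted all log2 ratios by 0.03 and centring on the median gene by 0.04, with 18 and 25, and 19 and 21 genes. Settings chosen after seeing the data gave 19 and 30 genes (cells on the S1/5 dKO side of the chromosome 8 share) and 17 and 29 (without cells of at least 10 *Sp5* and *Fgfbp1* UMIs). The 18 genes stayed above 0 and the 29 below 0 in all 15 settings, which is no separate support for them. Changing the minimum of expected UMIs or the fold kept the main ratios, and the scalings shifted them too little to change a sign. The other settings drew on the same library that chose the genes. The median of the paternally expressed genes ran from −0.20 to −0.03 over 12 alternatives. No paired analysis was possible because the cells compared come from 1 library. Leaving out shared barcodes changed nothing, since there were 0. Of the 47 genes, 40 had under 200 expected UMIs.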
